A study of Mus musculus with 4 samples.

Results

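Interferon-stimulated genes were described across the cell types of hypoxic mouse lung and between Vegfr2Y949F and WT mice. The set was 39 named genes, matched by symbol to the 31253 gene identifiers of the count files, and 38 of them had a row there. All values come from 4 droplet-based (10x Genomics) single-cell RNA libraries, 2 of lungs from Vegfr2Y949F mice and 2 of lungs from WT mice, with a library of a set A and a library of a set B for each genotype. Mice of both genotypes were on the C57BL/6J background, were 6 to 8 weeks old, and were held in hypoxia for 6 weeks, and each library pooled the lung cells of 2 mice. Vegfr2Y949F mice carry a tyrosine-to-phenylalanine change in the VEGF receptor 2 (gene Kdr), which a count of Kdr transcripts cannot read, so the genotype labels could not be checked in these counts. Because every library came from hypoxic lungs, an effect of hypoxia itself was not analysed here. The labels do not say whether the libraries of a genotype came from separate groups of mice, so the tests below measure the spread between libraries.

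Type I interferons act through the receptor subunits Ifnar1 and Ifnar2 and a transcription factor complex with Stat2 and Irf9, which binds the interferon-stimulated response element (ISRE). Interferon-gamma acts through Ifngr1 and Ifngr2 and, at the DNA, through the gamma-activated site (GAS), and it also induces Irf1, a factor that itself binds ISRE-like elements. The IFIT proteins, the OAS family and Rsad2 (viperin) are effectors that act on viral RNA or on viral replication and are commonly read as targets of type I interferon. The immunity-related GTPases (IRG: Irgm1, Irgm2, Igtp, Iigp1) and the guanylate-binding proteins (GBP) attack the vacuoles of intracellular pathogens and are classically read as targets of interferon-gamma. Most of these genes respond to both kinds of interferon to some degree.

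The stretches upstream of 4 members are shown because these genes represent the 2 arms: Ifit1 and Rsad2 for the antiviral effectors, Gbp7 and Gbp3 for the GTPases. They come from the RefSeq promoter table of build GRCm38.p6, cover at most 250 bases before the RefSeq start on the gene's own strand, and stop before the first annotated base of the gene. Ifit1 lies on the plus strand (chr19:34640639-34640870), Rsad2 on the minus strand (chr12:26456453-26456702), and Gbp7 (chr3:142530086-142530335) and Gbp3 (chr3:142559794-142560025) on the plus strand. Capitals mark the matches to TTTCNNTTTC, the ISRE letters searched, and to TTCNNNGAA, the GAS letters searched.
Ifit1: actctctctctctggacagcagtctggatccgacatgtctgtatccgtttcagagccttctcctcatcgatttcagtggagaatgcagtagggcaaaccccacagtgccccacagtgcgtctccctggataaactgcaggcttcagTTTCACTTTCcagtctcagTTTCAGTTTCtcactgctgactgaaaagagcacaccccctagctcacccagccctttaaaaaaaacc
Rsad2: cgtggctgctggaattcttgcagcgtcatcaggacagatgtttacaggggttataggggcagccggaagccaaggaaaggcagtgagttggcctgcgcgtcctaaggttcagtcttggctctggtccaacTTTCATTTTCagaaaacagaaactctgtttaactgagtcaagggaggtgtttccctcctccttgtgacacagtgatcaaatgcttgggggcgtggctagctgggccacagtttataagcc
Gbp7: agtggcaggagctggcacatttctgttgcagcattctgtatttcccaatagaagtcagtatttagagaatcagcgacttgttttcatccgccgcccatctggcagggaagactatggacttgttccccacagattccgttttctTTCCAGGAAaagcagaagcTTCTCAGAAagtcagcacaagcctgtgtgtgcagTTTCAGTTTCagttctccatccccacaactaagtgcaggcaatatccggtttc
Gbp3: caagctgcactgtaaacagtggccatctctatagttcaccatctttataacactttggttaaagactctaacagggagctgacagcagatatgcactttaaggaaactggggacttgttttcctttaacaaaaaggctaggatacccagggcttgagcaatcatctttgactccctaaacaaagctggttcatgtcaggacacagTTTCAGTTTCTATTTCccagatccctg
Ifit1 had 2 ISRE matches, and Rsad2 had 1. Gbp7 had 1 ISRE match and 2 GAS matches, whereas Gbp3 had 2 overlapping ISRE matches. With both strands searched over the 250 bases before the start, 16 of the 30 members with an entry in the table held an ISRE match (53.3%), against 3.46% of 27025 genes. A GAS match stood in 7 of 30 members (23.3%), against 8.13% of all genes. The ISRE was matched in 6 of 9 genes of the Ifit, Oas and Rsad2 list and in 6 of the 6 GTPases that had an entry, so these letters did not separate the 2 arms. GAS matches stood in 2 of 9 and 3 of 6 of them. A match describes the letters and not the binding of a factor.

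Of the 38 members, 8 lie on chromosome 11 (among them the IRG genes Irgm1, Irgm2, Igtp and Ifi47), 5 on chromosome 5 (the OAS genes and Gbp6), 4 on chromosome 19 (the 4 Ifit genes) and 4 on chromosome 3 (Gbp2, Gbp3, Gbp7 and Ifi44). Ifit3 and Ifit3b are near-identical copies, and Irgm2 overlaps Igtp on the same strand of chromosome 11, so the split of reads within each of these pairs is uncertain.

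The libraries held 11992 to 15160 barcodes and 83606389 to 96521589 UMIs (unique molecular identifiers, 1 per captured transcript), and 9345 to 11475 cells per library were kept. Pairs of libraries shared 43 to 70 barcodes, at most 0.557% of the smaller library. Cell types were rebuilt from marker genes, with the interferon genes left out of the clustering, and each name below means a cluster that is like that type by its markers. A cluster led by monocyte genes, with 34 to 279 cells per library, did not meet the rule for a name and is called the monocyte cluster. Levels are given as CPM (counts of UMIs of a gene, summed over the cells of a type in a library and scaled to the same total in each). The CPM of a gene was compared between types and libraries, and genes were not ranked against each other by it. In library WT A, immune types other than dendritic cells carried the most transcripts of endothelial markers: the 5 markers summed to 616 and 132 CPM in Vegfr2Y949F alveolar macrophages (sets A and B), against 1706 and 207 CPM in WT. The sum of 8 GTPases in alveolar macrophages moved with it (286 and 87.2 CPM in Vegfr2Y949F, against 703 and 102 CPM in WT), and the part of that RNA in it was not tested.

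Interferon-stimulated genes were detected in every cell type, but the 2 arms had different places. Endothelial types held the highest mean level of 22 of 38 members, immune types of 15, and alveolar type 1 (AT1) cells, the flat cells of gas exchange, of 1. All 10 GTPases were highest in an endothelial type, whereas of the 9 genes of the Ifit, Oas and Rsad2 list only Ifit3b was. General capillary cells, the larger of the 2 capillary endothelial types, were highest for 14 members and venous cells for 6, and for many members these 2 were next to each other: Gbp6, which coats pathogen vacuoles, averaged 48.3 ± 11.3 CPM in general capillary and 48.0 ± 17.1 CPM in venous cells (SD, n = 4 libraries each), a difference far below the spread.

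**Figure D1:**
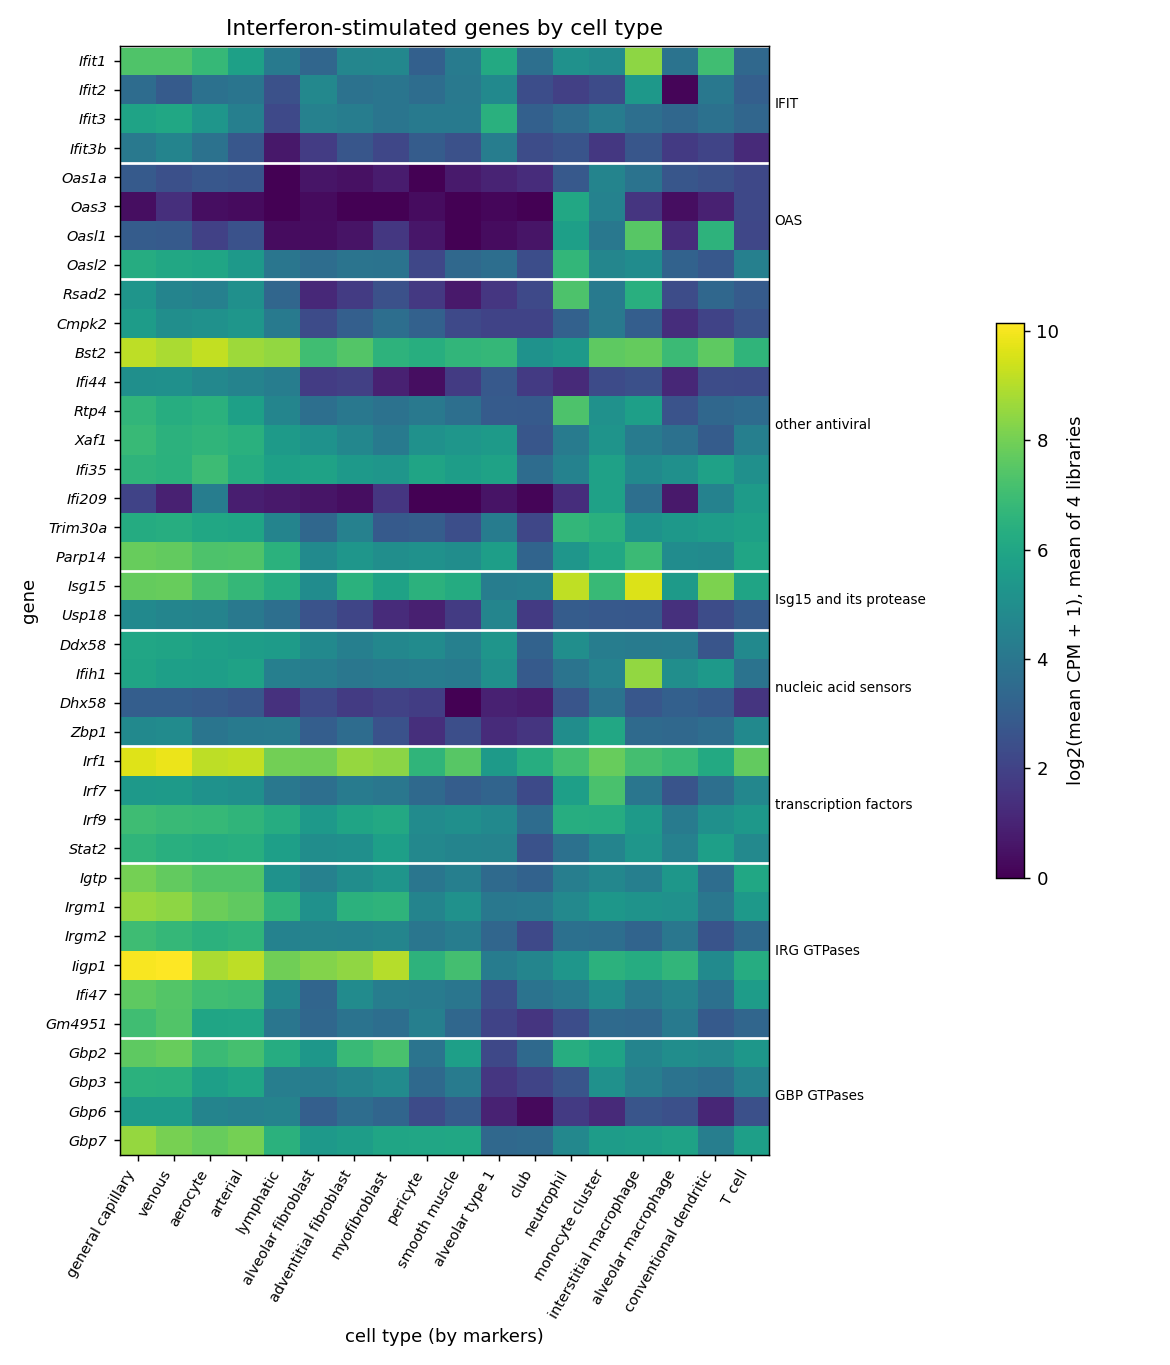
Level of each of the 38 members (rows, grouped by role with white lines) in 18 cell types (columns), as log2 of the mean CPM of 4 libraries plus 1. Each GTPase row at the bottom has its highest value in 1 of the 4 blood endothelial types at the left, whereas Isg15, Rsad2 and Oas3 peak in interstitial macrophages or neutrophils at the right.

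Iigp1, an IRG GTPase that loads onto parasite vacuoles, shows the endothelial pattern of the GTPases. In general capillary cells it was at 1284 and 1064 CPM in Vegfr2Y949F A and B and at 878 and 1045 CPM in WT A and B. AT1 cells had 14.1 and 10.3 CPM in Vegfr2Y949F, against 26.7 and 21.2 CPM in WT. Thus all 4 general capillary values lay above all AT1 values, as did those of aerocytes, the thin capillary cells of the gas exchange surface (589 and 444 CPM in Vegfr2Y949F, 371 and 455 CPM in WT). Outside blood vessels, Iigp1 was also seen in myofibroblasts (737 and 691 CPM in Vegfr2Y949F, against 255 and 384 CPM in WT), from 40 to 77 cells per library. Endothelial markers in myofibroblasts summed to 988 and 516 CPM in Vegfr2Y949F and 119 and 557 CPM in WT, and their part in this was not tested.

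Several antiviral members had their highest level outside the endothelium. Ifit1, which binds viral RNA lacking a host cap, averaged 338 ± 169 CPM in interstitial macrophages, with 581 and 286 CPM in Vegfr2Y949F and 187 and 298 CPM in WT. Venous cells came next with 163 ± 66.3 CPM, and their Vegfr2Y949F B value of 252 CPM lay inside the macrophage range, so these neighbours overlapped. Isg15, a ubiquitin-like modifier, averaged 792 ± 223 CPM in interstitial macrophages and 576 ± 354 CPM in neutrophils. The neutrophil mean rested on Vegfr2Y949F B, since Isg15 there was at 405 and 1104 CPM in Vegfr2Y949F and 443 and 353 CPM in WT.

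Oas3, a synthetase of the RNase L activator 2-5A, was highest in neutrophils, at 61.9 and 81.4 CPM in Vegfr2Y949F and 58.0 and 66.7 CPM in WT, with 67.0 ± 10.2 CPM on average. The monocyte cluster followed with 21.5 ± 6.53 CPM, and general capillary cells had 0.443 and 0.173 CPM in Vegfr2Y949F and 0.347 and 0.217 CPM in WT. Rsad2 was likewise highest in neutrophils (174 and 186 CPM in Vegfr2Y949F, 167 and 99.0 CPM in WT). Ifih1 (MDA5), a sensor of long double-stranded RNA, was highest in interstitial macrophages at 361 ± 127 CPM, against 59.8 ± 7.03 CPM in general capillary cells. Irf7, the amplifier of type I interferon genes, was highest in the monocyte cluster at 150 ± 105 CPM, again with 1 high library (87.0 and 304 CPM in Vegfr2Y949F, 125 and 83.3 CPM in WT).

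AT1 cells stood out by Ifit3, a partner of Ifit1, at 73.5 and 114 CPM in Vegfr2Y949F and 52.9 and 100 CPM in WT. Its mean of 85.3 ± 27.4 CPM there was the highest of all types, but venous cells with 65.8 ± 42.5 CPM overlapped with it.

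To set the 2 arms against each other, the UMIs of the 9 Ifit, Oas and Rsad2 genes and of the 8 GTPases (Irgm1, Irgm2, Igtp, Iigp1, Gbp2, Gbp3, Gbp6 and Gbp7) were summed per library and type, without a test since the lists were chosen. In 14 of 18 types the log2 ratio of the first sum to the second was below 0 in all 4 libraries, and in 4 types it was above 0 in all 4. General capillary cells had 332 and 607 CPM of the first list in Vegfr2Y949F, against 258 and 304 CPM in WT, and 3064 and 2488 CPM of the GTPases in Vegfr2Y949F, against 2294 and 2326 CPM in WT. Both Vegfr2Y949F libraries thus lay above both WT libraries for each sum. The ratio averaged -2.83 ± 0.54 on the log2 scale over the 4 libraries.

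The 4 types in which the antiviral sum was the larger were AT1 cells (log2 ratio 1.66 ± 0.46), interstitial macrophages (1.54 ± 0.29), neutrophils (1.09 ± 0.36) and conventional dendritic cells (0.94 ± 1.69). The dendritic value turned to -0.23 ± 0.72 when cells were clustered with the members. In AT1 cells the first list stood at 223 and 237 CPM in Vegfr2Y949F and 188 and 218 CPM in WT, near the level in aerocytes (242 and 401 CPM in Vegfr2Y949F, 204 and 220 CPM in WT). Their GTPase sum was 68.0 and 51.4 CPM in Vegfr2Y949F, against 88.5 and 69.4 CPM in WT. AT1 cells and aerocytes thus overlapped in the antiviral sum and lay far apart in the GTPase sum. Endothelial markers summed to 259 and 120 CPM in Vegfr2Y949F and 223 and 142 CPM in WT AT1 cells, against at least 4957 CPM in every library of the 4 blood endothelial types. The AT1 cluster held 762 cells before doublets were removed. Another cluster that scored highest for AT1 markers, with 1156 cells, was left unnamed because of its endothelial markers. The low endothelial sum thus follows in part from the naming rule, and the part of that rule in the GTPase sum was not tested.

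The AT1 and neutrophil ratios depended on doublets, droplets that hold more than 1 cell. With predicted doublets kept, the ratio of AT1 cells was -0.058 and that of neutrophils -0.26, so both turned, and that of interstitial macrophages was 0.91. The dendritic mean rested on WT A, whose 20 dendritic cells gave a ratio of 3.47, while the other 3 libraries lay between 0.09 and 0.11.

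**Figure D2:**
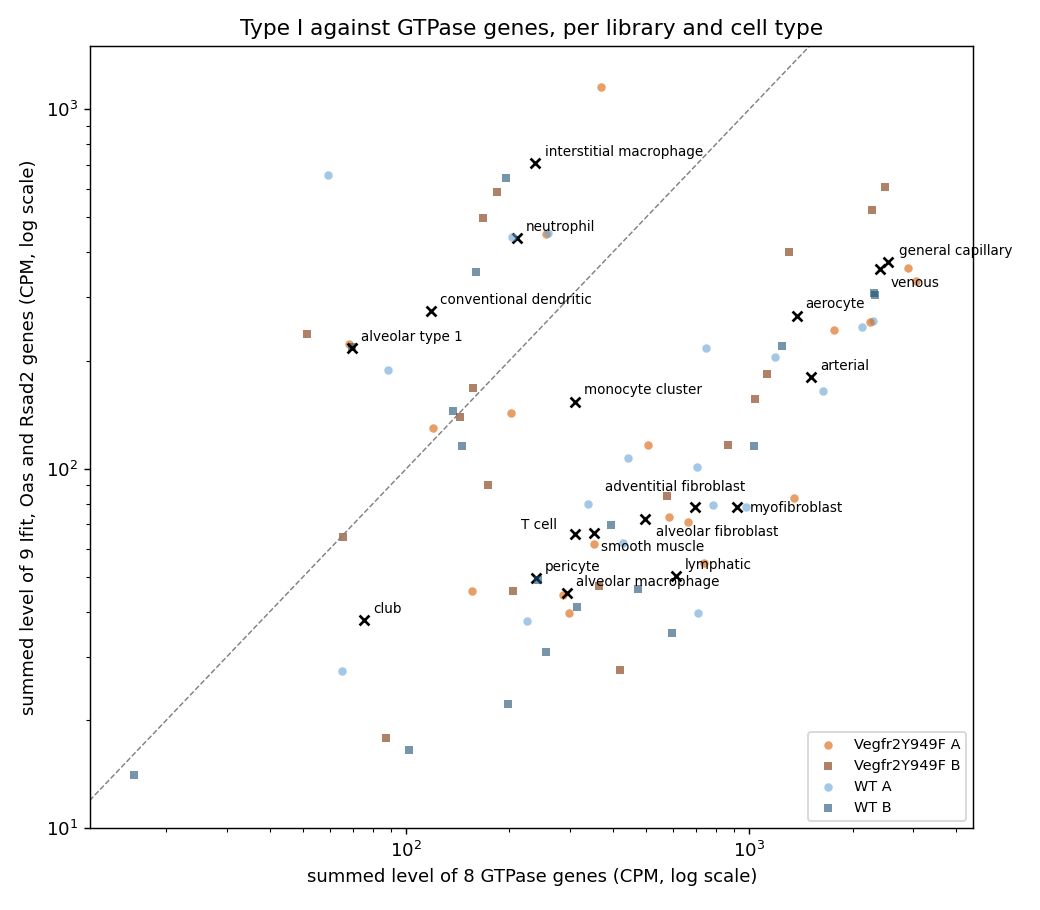
Summed CPM of the 9 Ifit, Oas and Rsad2 genes (vertical, log scale) against summed CPM of the 8 GTPases (horizontal, log scale), with 1 coloured point per library and cell type and a black cross at the mean of each type. The dashed line marks equal sums: interstitial macrophages, neutrophils, conventional dendritic cells and AT1 cells lie above it, and the endothelial types lie far to the right below it.

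Different genes filled the 2 sums in different cells. Ifit1 gave 43.3% of the antiviral sum in general capillary cells and 47.8% in interstitial macrophages, against 39.4% for Ifit3 in AT1 cells and 35.6% for Rsad2 in neutrophils. Iigp1 gave 42.0% of the GTPase sum in general capillary cells, whereas Gbp2 gave 37.9% of it in neutrophils.

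Among endothelial types, members were mostly lower outside the general capillary and venous cells. The types were compared in 1 model with edgeR's quasi-likelihood test, with a term for the library, over 11499 genes, of which 37 were members (Oas3 was too low), and a call is a Benjamini-Hochberg adjusted p under 0.05. In aerocytes 31 members were called lower than in general capillary cells and 2 higher, while 26.1% and 25.6% of all genes were called lower and higher. Arterial cells had 29 members called lower and 0 higher (9.07% and 9.7% of all genes), and lymphatic cells had 34 lower and 0 higher (22.9% and 21.4%). At an unadjusted p under 0.05 edgeR had 1 member higher in arterial cells, Ifit2, and 0 in lymphatic cells, and DESeq2 was not run on these contrasts. Venous cells were the exception, with 8 members lower and 3 higher (12.4% and 14.5% of all genes). The median member stood at -0.47 in aerocytes, -0.48 in arterial, -0.05 in venous and -1.94 in lymphatic cells on the log2 scale, while the median over all genes was -0.06 in lymphatic cells, -0.01 in venous cells and closer to 0 in the others.

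The drop was not the same for each role. Aerocytes had the GTPases lowest, with a median log2 fold change of -0.78 for the 4 GBP genes and -0.70 for the 6 IRG genes, all 10 of them called, against -0.44 for the 4 IFIT genes, of which 3 were called. Iigp1 was lower (log2 fold change -1.23, SE 0.15, adjusted p = 1.4e-07). Oasl1, a negative regulator of Irf7 translation in mice, had the same fold change (-1.23, SE 0.14, adjusted p = 5.6e-08), at 3.12 and 3.65 CPM in Vegfr2Y949F and 2.18 and 2.61 CPM in WT aerocytes.

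Ifi209, a DNA-binding protein of the PYHIN family in mice, ran the other way and was the member with the largest rise in aerocytes (2.62, SE 0.16, adjusted p = 2.7e-13). It was at 19.996 and 18.95 CPM in Vegfr2Y949F and 18.15 and 17.95 CPM in WT aerocytes. General capillary cells had 3.86 and 4.55 CPM of it in Vegfr2Y949F and 1.84 and 2.09 CPM in WT, so the 2 types did not overlap. The other member higher in aerocytes was Ifi35 (0.35, SE 0.05, adjusted p = 3.4e-06), at 107 and 131 CPM in Vegfr2Y949F and 127 and 135 CPM in WT aerocytes, against 91.9 and 101 CPM in Vegfr2Y949F and 91.8 and 101 CPM in WT general capillary cells. The monocyte cluster and T cells had more Ifi209 than any endothelial type, at 54.3 ± 11.7 and 47.0 ± 6.85 CPM.

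Arterial cells, in contrast, had the IFIT genes lowest. Their 4 IFIT genes had a median of -1.37, with 3 called, against -0.77 for the IRG genes and -0.50 for the GBP genes, which were all called. Ifit3 was lower (log2 fold change -1.41, SE 0.15, adjusted p = 2.8e-08), at 19.3 and 25.8 CPM in Vegfr2Y949F and 20.1 and 13.1 CPM in WT arterial cells, and Ifit1 had the same fold change (SE 0.17). These levels lay below every general capillary library of Ifit3 (39.7 and 108 CPM in Vegfr2Y949F, 34.5 and 47.7 CPM in WT). Ifi209 was also lower in arterial cells (-1.52, SE 0.51, adjusted p = 0.034), but this rests on 10 and 1 UMIs in Vegfr2Y949F and 1 and 0 UMIs in WT.

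In venous cells Ifit3b (0.56, SE 0.14, adjusted p = 0.0036), the GTPase gene Gm4951 (0.42, SE 0.08, adjusted p = 0.00031) and Irf1 (0.26, SE 0.09, adjusted p = 0.025) were higher than in general capillary cells. Ifit3b had 23.1 and 31.0 CPM in Vegfr2Y949F and 14.9 and 22.7 CPM in WT venous cells, against 12.8 and 27.9 CPM in Vegfr2Y949F and 10.6 and 13.6 CPM in WT general capillary cells, an overlapping range. Gm4951 had 186 and 160 CPM in Vegfr2Y949F and 136 and 192 CPM in WT venous cells, against 129 and 135 CPM in Vegfr2Y949F and 120 and 138 CPM in WT general capillary cells. WT A venous cells at 136 CPM thus overlapped with the general capillary range. Rsad2 was lower in venous cells (-0.74, SE 0.19, adjusted p = 0.0030), at 38.0 and 21.5 CPM in Vegfr2Y949F and 18.3 and 12.7 CPM in WT. Ifi209 was lower too (-1.55, SE 0.50, adjusted p = 0.021), from 2 and 4 UMIs in Vegfr2Y949F and 0 and 6 UMIs in WT. Without WT A, 7 members were called in venous cells in place of 11.

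Lymphatic cells had the lowest member median of the 4 endothelial types set against general capillary cells. Oas1a had 0 UMIs in all 4 libraries among 1953233 UMIs, for which 3 counts over the group allow up to 1.54 CPM, so it was at least 4.09-fold lower than the mean of 6.28 CPM in general capillary cells. The median of -1.94 over the members was the same with Oas1a at this bound. Gm4951 was at 9.09 and 6.27 CPM in Vegfr2Y949F and 39.1 and 5.30 CPM in WT lymphatic cells, each value from 1 to 5 UMIs (-4.16, SE 0.28, adjusted p = 1e-12). Ifit3b was seen as 1 UMI in Vegfr2Y949F B and 1 UMI in WT B. The A libraries held 27 lymphatic cells in Vegfr2Y949F and 22 in WT, so single values there are imprecise.

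The study's own comparison is between the genotypes. In general capillary cells, most members had somewhat higher values in Vegfr2Y949F than in WT lungs, but no member passed the test. Of 13129 genes, 0 were called by edgeR and 12 by DESeq2 (0.0914%), none of them members, and 223 (1.7%) had an unadjusted p under 0.05. Of the 37 members tested, 33 had a positive log2 fold change (48.4% of all genes), with a median of 0.27 and a range from -0.17 to 1.04, against a median of -0.01 over all genes. Both Vegfr2Y949F libraries lay above both WT libraries, on the scale of the model, for 16 members, while 12% of all genes did so, and 0 members lay below (11.8% of all genes). An unadjusted p under 0.05 with a higher level was found for 7 members (1.26% of all genes), and the adjusted p of every member was 1.00. Without Vegfr2Y949F B, 25 of 38 members were positive, the median was 0.13, and 964 genes in place of 223 had an unadjusted p under 0.05.

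The antiviral effectors led this order. Ifi44, an interferon-induced antiviral protein, was at 42.4 and 38.9 CPM in Vegfr2Y949F and 23.5 and 22.5 CPM in WT, and the groups did not overlap (log2 fold change 0.76, SE 0.14, unadjusted p = 0.0011). Rsad2 was at 53.3 and 40.9 CPM in Vegfr2Y949F and 31.5 and 26.0 CPM in WT, again without overlap (0.64, SE 0.16, unadjusted p = 0.0063). Ifit2, an IFIT protein linked to cell death, was at 14.0 and 13.3 CPM in Vegfr2Y949F and 9.17 and 7.52 CPM in WT (0.64, SE 0.18, unadjusted p = 0.0093). Its groups did not overlap either. Of 10 other antiviral effectors tested, Rsad2 and Ifi44 included, 9 were positive (48.4% of all genes), with a median of 0.28. Without overlap, 5 of them were higher in Vegfr2Y949F (12% of all genes).

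Ifit1 had the largest fold change of the 4 IFIT genes but rested on 1 library. It was at 121 and 309 CPM in Vegfr2Y949F and 94.0 and 126 CPM in WT, so that Vegfr2Y949F A lay between the WT libraries (0.93, SE 0.45, unadjusted p = 0.0796). Ifit3 was at 39.7 and 108 CPM in Vegfr2Y949F and 34.5 and 47.7 CPM in WT. Isg15 was at 116 and 362 CPM in Vegfr2Y949F and 170 and 206 CPM in WT, which puts the Vegfr2Y949F libraries on either side of both WT libraries (0.31, SE 0.51). Usp18, the protease that removes Isg15 from proteins, was at 23.6 and 33.9 CPM in Vegfr2Y949F and 22.1 and 27.9 CPM in WT, with overlap.

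All 4 nucleic acid sensors lay higher in both Vegfr2Y949F libraries, as did 12% of all genes. Zbp1, a sensor of Z-form nucleic acids that can start necroptosis, was at 33.0 and 30.9 CPM in Vegfr2Y949F and 20.9 and 24.0 CPM in WT (0.44, SE 0.16). Ddx58 (RIG-I) was at 71.7 and 65.0 CPM in Vegfr2Y949F and 62.1 and 54.8 CPM in WT, and Ifih1 at 63.1 and 68.1 CPM in Vegfr2Y949F and 53.0 and 55.0 CPM in WT. The gaps of these 2 genes were small. The 4 transcription factors had a median of 0.06, and none was apart on the scale of the model. Irf1 was at 650 and 1009 CPM in Vegfr2Y949F and 581 and 991 CPM in WT, where the sets differed more than the genotypes, and Irf9 was at 142 and 129 CPM in Vegfr2Y949F and 114 and 127 CPM in WT, where CPM alone left a narrow gap.

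Of the OAS genes, Oasl2 was at 79.7 and 91.7 CPM in Vegfr2Y949F and 69.5 and 67.1 CPM in WT, without overlap (0.27, SE 0.16). Oas1a was at 4.06 and 7.97 CPM in Vegfr2Y949F and 3.96 and 9.13 CPM in WT, with overlap (-0.17, SE 0.50). Bst2 (tetherin), which holds budding virus at the cell surface, was at 531 and 610 CPM in Vegfr2Y949F and 563 and 517 CPM in WT, and Parp14, a mono-ADP-ribosyltransferase, was at 215 and 255 CPM in Vegfr2Y949F and 204 and 200 CPM in WT. Bst2 overlapped and Parp14 did so once scaled, and both fold changes were small (0.02, SE 0.20, for Bst2 and 0.16, SE 0.19, for Parp14).

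The GBP genes were all positive (48.4% of all genes), with a median of 0.33, and 3 of 4 were higher without overlap (12%). Gbp6 was at 61.0 and 53.2 CPM in Vegfr2Y949F and 35.1 and 43.9 CPM in WT (0.46, SE 0.17). Gbp3 was at 114 and 89.6 CPM in Vegfr2Y949F and 89.2 and 59.8 CPM in WT, and Gbp2 at 245 and 202 CPM in Vegfr2Y949F and 197 and 154 CPM in WT. For these 2 genes the lower Vegfr2Y949F library lay just above the higher WT library. Gbp7 was at 517 and 302 CPM in Vegfr2Y949F and 407 and 246 CPM in WT, with overlap. The 6 IRG genes had a median of 0.16, among them Iigp1 at 0.22 (SE 0.21) and Irgm1, which acts in autophagy, at 344 and 463 CPM in Vegfr2Y949F and 284 and 443 CPM in WT (0.09, SE 0.30).

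**Figure D3:**
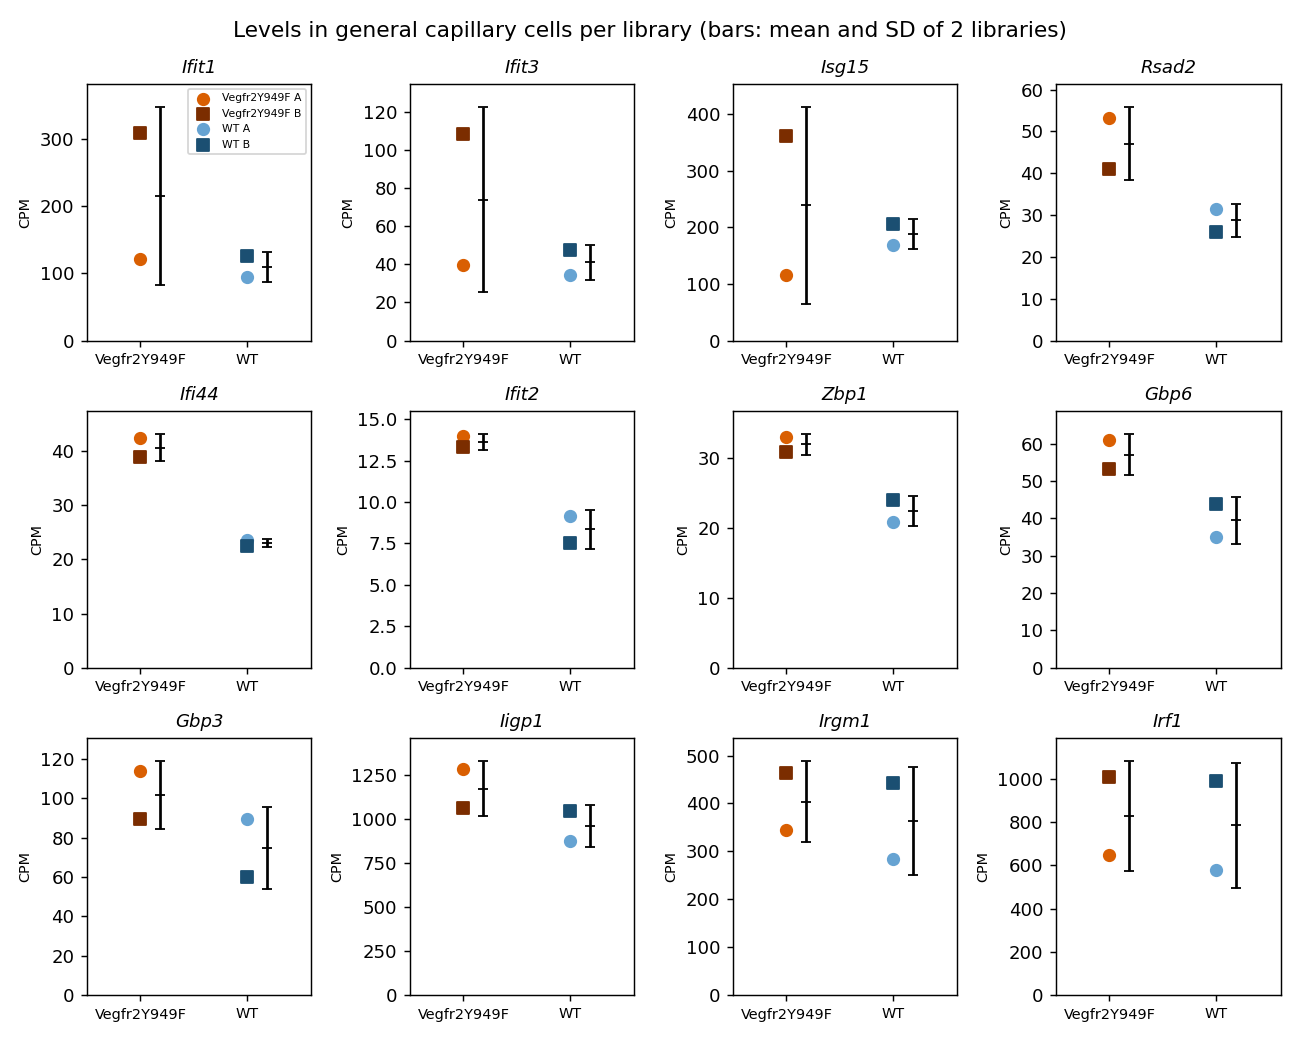
Levels of 12 members in general capillary cells (vertical axis, CPM, from 0), with 1 point per library and the mean and SD of the 2 libraries of each genotype beside them. Rsad2, Ifi44, Ifit2, Zbp1, Gbp6, Gbp3 and Iigp1 show no overlap of Vegfr2Y949F and WT, whereas Ifit1, Ifit3 and Isg15 have 1 high library, Vegfr2Y949F B, and Irgm1 and Irf1 split by set.

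Within the sets, Vegfr2Y949F over WT was positive for 35 of 38 members in set A and 33 of 38 in set B, and for 30 in both. No share over all genes was computed for these counts, so they do not set the members apart from all genes. The antiviral list had the larger median in set B (0.65, against 0.35 in set A), and the GTPases in set A (0.35, against 0.17 in set B). For Ifi44 the sets were alike, at 0.85 in set A and 0.79 in set B on the log2 scale, as they were for Ifi209 at 1.07 and 1.12. Ifit1 had 0.37 in set A and 1.30 in set B, and Isg15 was of opposite sign, at -0.55 in set A and 0.81 in set B. Iigp1 had 0.55 in set A and 0.03 in set B. Each set holds 1 library per genotype, so these within-set values have no test.

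The high antiviral values of Vegfr2Y949F B were highest in 1 cluster. Of the 16039 general capillary cells, 1528 fell in a cluster led by Plvap, a protein of endothelial fenestrae, and it held 605 and 778 cells in Vegfr2Y949F, against 78 and 67 cells in WT. Ifit1 there was at 153 and 721 CPM in Vegfr2Y949F and 126 and 111 CPM in WT. Isg15 was at 128 and 642 CPM in Vegfr2Y949F and 153 and 253 CPM in WT. In both genes Vegfr2Y949F B stood far above the 3 other libraries, and Vegfr2Y949F A did not.

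In cluster 0, whose cells numbered 2003 and 705 in Vegfr2Y949F and 2986 and 757 in WT, the 9 antiviral genes summed to 306 and 279 CPM in Vegfr2Y949F and 251 and 203 CPM in WT, a smaller gap but without overlap. Cluster 1 gave 354 and 389 CPM in Vegfr2Y949F and 275 and 324 CPM in WT, also without overlap. Cluster 9 gave 359 and 272 CPM in Vegfr2Y949F and 238 and 295 CPM in WT, and it overlapped. The GTPase sum of the Plvap-led cluster was 2578 and 3426 CPM in Vegfr2Y949F and 2209 and 2745 CPM in WT, and it overlapped. That cluster was left out in an alternative added once the data were seen. Then 29 of 37 members stayed positive in general capillary cells, with a median of 0.14 in place of 0.27. At an unadjusted p under 0.05, 1 member in place of 7 was higher. Of all genes, 108 in place of 223 had such a p, so that drop was not particular to the members. Ifi44 then had 0.47 in place of 0.76. Without Vegfr2Y949F A, and with the cluster kept, the member median was 0.35.

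**Figure D4:**
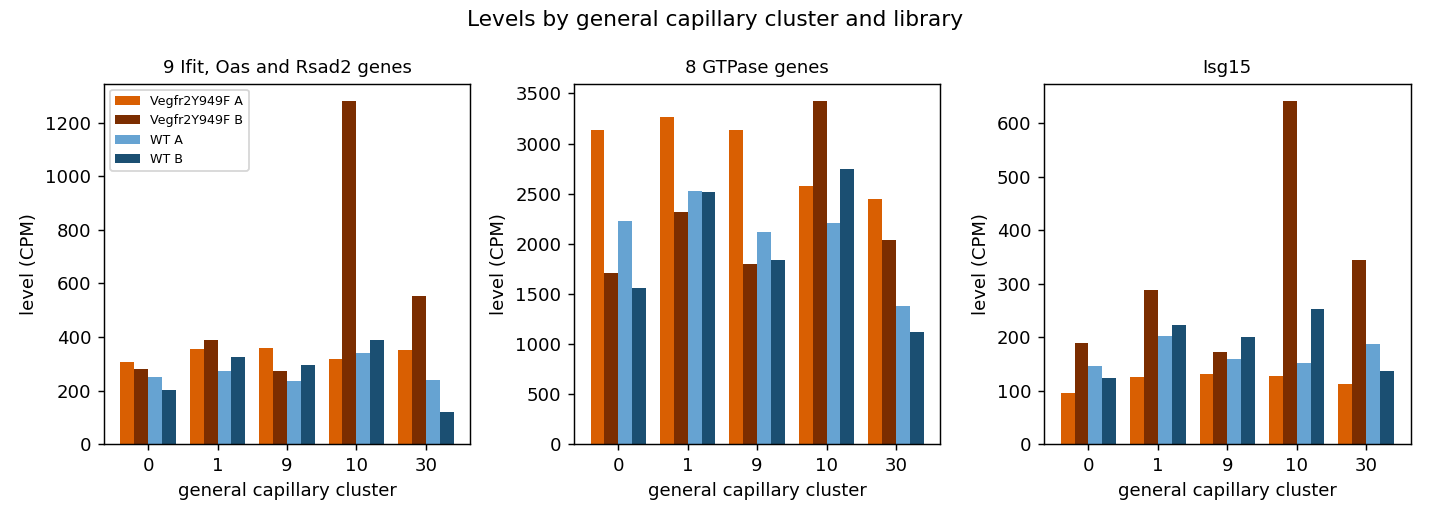
Levels (CPM, from 0) in the 5 clusters of general capillary cells, with 1 bar per library, for the sum of 9 Ifit, Oas and Rsad2 genes, the sum of 8 GTPases and Isg15. In cluster 10, the Plvap-led one, Vegfr2Y949F B reaches 1282 CPM of the antiviral sum and the other 3 libraries 318 to 388 CPM, while the GTPase bars of the same cluster run from 2209 to 3426 CPM.

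Immune markers in general capillary cells summed to 25.4 and 13.2 CPM in Vegfr2Y949F and 8.47 and 16.8 CPM in WT, overlapping between the genotypes. Erythroid markers summed to 1203 and 1046 CPM in Vegfr2Y949F and 464 and 833 CPM in WT endothelial cells. With haemoglobin-rich cells left out, likewise added later, 6 members in place of 7 were higher at an unadjusted p under 0.05 over all endothelial cells, and 7 as before in general capillary cells.

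All blood endothelial cells together gave much the same order. Of 13987 genes edgeR called 0 and DESeq2 5 (0.0357%), none of them members, and 155 (1.11%) had an unadjusted p under 0.05. All 38 members were tested, 32 were positive (48.6% of all genes) with a median of 0.24, 15 did not overlap (10.9% of all genes), and 7 were higher at an unadjusted p under 0.05 (0.801% of all genes). Rsad2 was at 48.2 and 34.0 CPM in Vegfr2Y949F and 26.3 and 20.9 CPM in WT (0.73, SE 0.19), and Ifi44 at 37.6 and 35.4 CPM in Vegfr2Y949F and 23.2 and 22.4 CPM in WT (0.61, SE 0.13). Neither gene overlapped. Without WT A the median was 0.21. Without the Plvap-led cluster the count of 7 became 2, with a median of 0.13, while 107 of all genes in place of 155 had such a p. Without Vegfr2Y949F B, 24 of 38 members were positive, again with a median of 0.13, and 856 genes in place of 155 had an unadjusted p under 0.05.

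Aerocytes had 11604 genes tested, of which edgeR called 0 and DESeq2 2 (0.0172%), none of them members, and 159 (1.37%) with an unadjusted p under 0.05. Of 37 members, 32 were positive (50.1% of all genes) with a median of 0.24, 16 did not overlap with Vegfr2Y949F above (13% of all genes), and 3 were higher at an unadjusted p under 0.05 (0.845% of all genes). Rsad2 led, at 30.5 and 23.2 CPM in Vegfr2Y949F and 14.98 and 13.3 CPM in WT, without overlap (0.88, SE 0.18, unadjusted p = 0.0012). Ifi44 was at 32.7 and 27.7 CPM in Vegfr2Y949F and 20.5 and 21.02 CPM in WT (0.50, SE 0.16), and Gbp3 at 71.5 and 49.2 CPM in Vegfr2Y949F and 47.5 and 37.5 CPM in WT (0.46, SE 0.20). The median of 0.24 became 0.21 without Vegfr2Y949F A, 0.17 without WT A and 0.31 without WT B. Without Vegfr2Y949F B, 24 of 37 members were positive, the median was 0.15, and 1215 genes in place of 159 had an unadjusted p under 0.05.

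Whether the genotypes differed by another amount in aerocytes than in general capillary cells was tested in 1 model with an interaction term. Of 13110 genes 25 (0.191%) were called (61 without Vegfr2Y949F B), and none of the 37 members was, while 579 genes and 4 members had an unadjusted p under 0.05. The smallest adjusted p among members was that of Ifi209 (aerocyte minus general capillary difference -0.98, SE 0.23, adjusted p = 0.117), with the values given above for both types. Ifit2 followed with -0.68 (SE 0.18, adjusted p = 0.314). It was at 13.9 and 11.4 CPM in Vegfr2Y949F and 12.6 and 12.6 CPM in WT aerocytes.

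In the 16 other types, 0 members were called between the genotypes by edgeR or DESeq2. Of all genes there, edgeR called 0.0871% in dendritic cells, 0.0295% in club, 0.0204% in arterial, 0.0172% in alveolar fibroblast and 0.0097% in venous cells, and DESeq2 0.0348%, 0.0295%, 0.0204%, 0.0257% and 0.0194% in the same types, with 0.0387% in alveolar macrophages and 0.0164% in lymphatic cells. The member median was above 0 in 14 of all 18 types. Venous cells had a median of 0.19 over 36 members, with 14 not overlapping and higher (12.9% of all genes), 2 lower (12.3%) and 6 higher at an unadjusted p under 0.05 (0.999%). Arterial cells had a median of 0.25 over 36 members, with 8 higher without overlap (12.3%) and 3 at an unadjusted p under 0.05 (0.858%). Rsad2 was among these 6 and among these 3. In arterial cells of Vegfr2Y949F A, thinned to 1000 UMIs each, 1 cell of 632 held 50 UMIs of the 9 antiviral genes, while no arterial cell of the other 3 libraries held more than 5, and the part of that cell was not tested.

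AT1 cells leaned the other way: of 25 members tested, 15 had a negative fold change, the median was -0.14, 9 lay below WT in both libraries (13% of all genes) and 4 above (13.4%), and 4 were lower at an unadjusted p under 0.05 (0.941%). A positive fold change was found for 49.4% of all genes. The roles differed: the 4 IFIT genes had a median of 0.30 with 3 positive, and both nucleic acid sensors tested were positive. The 4 transcription factors had a median of -0.44 with 1 positive, and the 4 IRG genes tested had -0.39 with 2 positive. Medians of the other roles lay between -0.19 and -0.15. Iigp1 led with -1.02 (SE 0.31, unadjusted p = 0.0061), at the low levels given above. In T cells 7 of 33 members lay below WT in both libraries (9.56% of all genes) and 3 above, with a median of -0.05. Lymphatic cells had 3 of 17 below (13.1%) and 4 above, with a median of -0.06. The monocyte cluster had 3 of 33 below (12.1%) and 7 above, with a median of 0.15, against 0.02 over all genes. For T cells, lymphatic cells and the monocyte cluster the share of all genes above is not given. The counts below and above therefore show no lean of the members there. Alveolar macrophages had a median of -0.51 over 21 members, of which 4 were positive (48.7% of all genes). Their WT A library, with 56 cells, was the one with the most endothelial marker RNA and with the highest GTPase sum, as given above. Club cells had a median of 0.71 over 19 members from 22 to 51 cells per library, of which 17 were positive (50.6% of all genes), 8 did not overlap and were higher (15.8%) and 4 had an unadjusted p under 0.05 (2.48%), with Iigp1 at 47.3 and 31.2 CPM in Vegfr2Y949F and 12.8 and 1.51 CPM in WT. Endothelial markers in club cells summed to 471 and 48.0 CPM in Vegfr2Y949F and 185 and 20.6 CPM in WT, and their part was not tested.

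At 1000 UMIs per cell, most general capillary cells held a GTPase UMI and a minority held an antiviral UMI. The antiviral sum was also lower than the GTPase sum (means of 376 and 2543 CPM), and the part of level in these shares was not tested. With each cell thinned to 1000 UMIs, 85.0% and 74.5% of general capillary cells in Vegfr2Y949F and 76.1% and 70.2% in WT had a UMI of the 8 GTPases. A UMI of the 9 antiviral genes was found in 21.8% and 25.9% of cells in Vegfr2Y949F and in 17.9% and 17.3% in WT. Both Vegfr2Y949F libraries were above both WT libraries for the antiviral list, and they overlapped with WT for the GTPases. Without thinning the means over the 4 libraries were 94.99% for the GTPases and 50.9% for the antiviral genes. In AT1 cells thinned alike, 5.88% and 4.03% had a GTPase UMI in Vegfr2Y949F and 6.59% and 5.81% in WT, and in T cells an Ifit1 UMI was found in at most 0.213% of cells of a library.

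The 10% of general capillary cells with the most antiviral UMIs held 63.6% and 69.1% of them in Vegfr2Y949F and 69.9% and 75.2% in WT. For the GTPases the upper 10% held 30.9% and 35.2% in Vegfr2Y949F and 34.4% and 39.0% in WT. The mean was under 1 antiviral UMI per thinned cell in every library, so these shares are also set by low counts.

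General capillary cells with an Ifit1 UMI more often held other antiviral genes. Ifit3 was found in 12.4% and 27.0% of Ifit1-positive cells in Vegfr2Y949F (347 and 471 cells) and in 12.5% and 16.5% in WT (383 and 254 cells), against 2.46% and 3.51% of the cells without Ifit1 in Vegfr2Y949F and 2.22% and 2.53% in WT. The ratio of these shares was 5.04 and 7.68 in Vegfr2Y949F and 5.66 and 6.53 in WT. For Isg15 it was 2.69 and 3.08 in Vegfr2Y949F and 2.60 and 3.30 in WT, so the genotypes overlapped for both genes.

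In general capillary cells the GTPases gave lower ratios. Iigp1 was in 70.3% and 76.9% of Ifit1-positive cells in Vegfr2Y949F and in 56.4% and 73.2% in WT, against 55.9% and 40.9% of the cells without Ifit1 in Vegfr2Y949F and 42.3% and 39.5% in WT. The ratio was 1.26 and 1.88 in Vegfr2Y949F and 1.33 and 1.86 in WT, below the ratio for Ifit3 in each library, though a gene found in most cells cannot reach a high ratio. Irgm1 gave 1.41 and 1.93 in Vegfr2Y949F and 1.54 and 2.19 in WT. The B libraries had the higher ratio for both GTPases in each genotype. In aerocytes the Iigp1 ratio was 2.44 and 3.68 in Vegfr2Y949F and 2.98 and 2.97 in WT. Isg15 had 1.62 and 3.79 in Vegfr2Y949F and 5.93 and 2.55 in WT aerocytes. Of Iigp1 and Isg15, Iigp1 thus had the higher ratio there in Vegfr2Y949F A and WT B, and Isg15 in Vegfr2Y949F B and WT A. Ifit3 had 3.41 and 3.74 in Vegfr2Y949F and 10.8 and 10.0 in WT aerocytes, above Iigp1 in each library, though narrowly in Vegfr2Y949F B. Aerocytes with an Ifit1 UMI numbered 52 and 62 in Vegfr2Y949F and 47 and 30 in WT, so these ratios are imprecise.

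**Figure D5:**
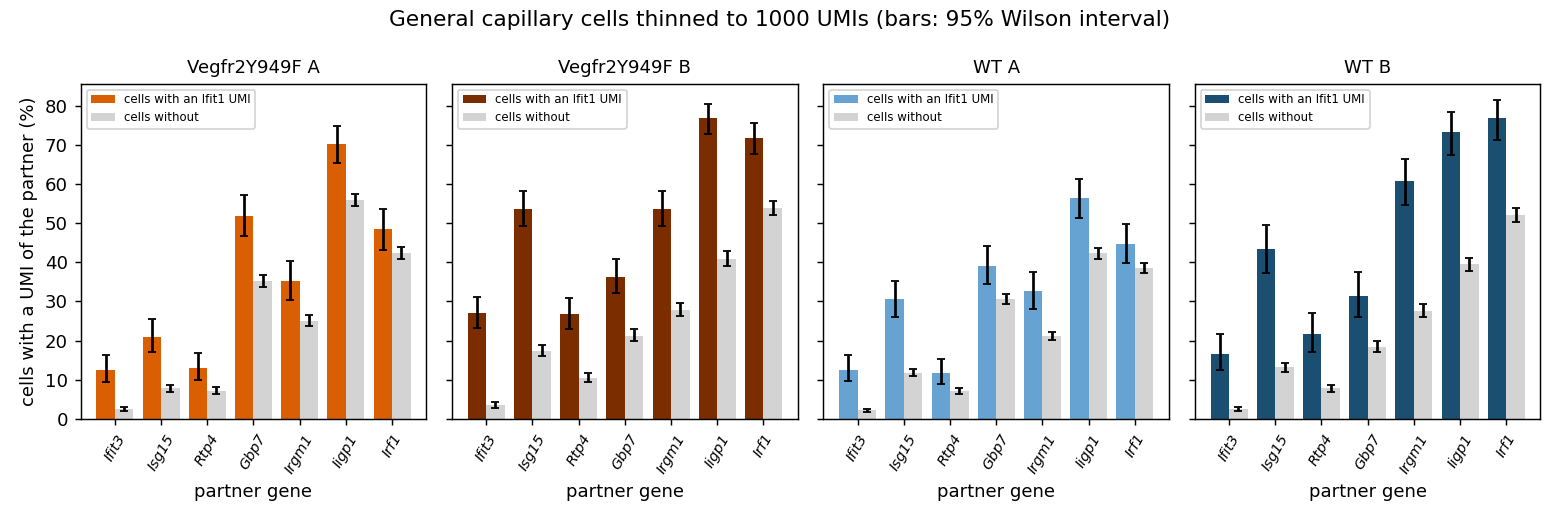
Share of general capillary cells, thinned to 1000 UMIs, that held a UMI of each partner gene (vertical axis, percent), for cells with an Ifit1 UMI (coloured bars) and without one (grey bars), with 95% Wilson intervals and 1 panel per library. Ifit3 and Isg15 show the widest relative gaps, and Iigp1 is found in 39.5% to 55.9% of the cells without Ifit1.

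Receptors and kinases of the pathway had fold changes on both sides of 0 in general capillary cells. Of 10 interferon genes looked at, Ifnb1 was seen as 5 UMIs in Vegfr2Y949F A and Ifng as 1 UMI in Vegfr2Y949F B, and neither in the other libraries. Of 9 receptor and kinase genes, 8 were tested, 5 were positive (48.4% of all genes), and the median was 0.03. In both Vegfr2Y949F libraries, 0 of the 8 lay higher (12% of all genes) and 1 lower (11.8%). With 8 genes, these counts do not set the list apart from all genes. Ifnar1 was at 38.5 and 37.7 CPM in Vegfr2Y949F and 38.8 and 33.5 CPM in WT, and Ifngr1 at 116 and 120 CPM in Vegfr2Y949F and 118 and 120 CPM in WT. Both receptors overlapped between the genotypes.

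Other interferon targets, listed beside the members, were also mostly positive. In general capillary cells, 48.4% of all genes were positive, 12% lay higher in both Vegfr2Y949F libraries and 11.8% lower. Of 38 further antiviral genes in the files, 34 were tested, 28 were positive, 8 lay higher in both Vegfr2Y949F libraries and 2 lower, with a median of 0.16 and 0 at an unadjusted p under 0.05. Of 22 further interferon-gamma targets, all tested, 19 were positive and 4 lay higher in both, with a median of 0.19. Of these, 2 had an unadjusted p under 0.05: Gbp5, an activator of inflammasomes, at 66.4 and 52.9 CPM in Vegfr2Y949F and 41.3 and 26.0 CPM in WT (0.76, SE 0.22), and Cd274 (PD-L1), at 54.3 and 58.5 CPM in Vegfr2Y949F and 40.7 and 42.1 CPM in WT (0.38, SE 0.15). Neither overlapped between the genotypes. The 7 tested genes of nucleic acid sensing and the 6 tested negative regulators, the member Usp18 among them, had medians of 0.03 and -0.01.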

How the data were processed

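The deposited files are whole-number counts of UMIs per gene and barcode, written by Cell Ranger 6.1.1 per the file headers. They were not normalized by the authors before deposit. Per the submitters' processing notes, the genome build was mm10 and the tools included Seurat 4.1.0, UMI-tools and fastp. The gene annotation was not given in the sources used here, and the deposited columns carry no cell types. Coordinates come from the GENCODE M21 annotation.

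Cells with at least 500 genes, at least 1000 UMIs and under 15% mitochondrial UMIs were kept (44835). Scrublet's automatic cut marked 387 cells of Vegfr2Y949F A, 64 of WT B and none of the other libraries, so the 8% of cells with the highest score in each library were removed instead, which left 41456. Scanpy 1.11.5 (Python 3.11.15) gave 37 Leiden clusters (2000 variable genes, 40 components, 15 neighbours, resolution 1), with 98 interferon genes left out of the variable genes. Clusters were named from marker lists, and 5709 cells stayed unnamed. UMIs were summed per library and type, for types with at least 20 cells in each library, and tested in edgeR 4.0.16 (R 4.3.3; TMM, filterByExpr, quasi-likelihood test, Benjamini-Hochberg over all genes tested), with DESeq2 1.42.0 as an alternative. "Above" and "below" on the scale of the model use TMM-scaled levels. The script was tested on simulated data. Wilson 95% intervals and the floor of 3 counts cover counting error only.

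Members and lists were chosen with earlier results of these data known. Named with values per library were the 2 highest members of each role in endothelial cells, the 3 members with the smallest genotype p in each of the 3 endothelial groups tested (all blood endothelial, general capillary, aerocyte), and, in each contrast of endothelial types, the called members with the 2 largest log2 fold changes in each direction. The members shown by cell type, set, cluster or partner, and Zbp1, Gbp6, Gbp5 and Cd274, were chosen after their values were seen. The member Mx1 was not analysed here. Alternatives were RLE size factors, no filter, DESeq2, a replicate block, each library left out, stricter cells (at least 1000 genes, under 10% mitochondrial), doublets kept, clustering with the members, a wider antiviral list, and thinning to 2000 UMIs or none.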

Additional observations from a re-analysis of the deposited data

Results flagged for a closer look

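Of the 16 members that lay higher in both Vegfr2Y949F libraries in general capillary cells, 6 lay lower in both in another type, in 7 pairs of member and type over 17 other types. Over all genes, 9.56% lay lower in both in T cells, 13% in AT1, 13.1% in lymphatic cells and 12.1% in the monocyte cluster. The 7 pairs come from a search over the 16 members in every type where they were tested. No share over all genes was computed for such pairs, so their count is not a result about the members. The difference between the types was not tested for any of them. In T cells Oasl2 was at 17.4 and 11.4 CPM in Vegfr2Y949F and 35.7 and 17.8 CPM in WT (log2 fold change -0.74), Ifi47 at 42.6 and 38.8 CPM in Vegfr2Y949F and 63.7 and 43.8 CPM in WT (-0.30), and Rsad2 at 5.52 and 4.45 CPM in Vegfr2Y949F and 10.2 and 6.18 CPM in WT (-0.56). In AT1 cells Trim30a was at 13.3 and 15.2 CPM in Vegfr2Y949F and 18.3 and 26.6 CPM in WT (-0.67), and Iigp1 had -1.02. In lymphatic cells Ddx58 was at 27.3 and 31.3 CPM in Vegfr2Y949F and 87.9 and 38.2 CPM in WT (-0.82). In the monocyte cluster Ifi47 was at 15.7 and 7.36 CPM in Vegfr2Y949F and 81.3 and 18.9 CPM in WT (-1.68). WT A held the highest value in 6 of the 7, all but Trim30a, and in T cells and the monocyte cluster it also held the most endothelial marker RNA (1330 and 1621 CPM). The part of that RNA was not tested.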

How the results depend on the processing

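Of the values that answer a comparison, 102 alternatives kept their direction and size and 47 moved them, while 4 turned them. For single members, the same means only that the sign held and the adjusted p stayed on its side of 0.05, whatever the size. By this rule 147 alternatives gave the same, 3 became stronger and 2 turned. No member was called in the main genotype tests, so the 147 do not speak for stable sizes. The 2 that turned were of Ifit2 in aerocytes, at -0.04 in the main test. It ranged from -0.14 without Vegfr2Y949F A to 0.043 without Vegfr2Y949F B, and was 0.049 with doublets kept. The count of genes called between the genotypes was 0 in all endothelial cells, general capillary cells and aerocytes, against 5, 12 and 2 with DESeq2 and 36, 58 and 29 without the filter on low counts. Without the filter, 3, 3 and 2 members were called. Leaving out each library gave 0 to 33, 0 to 42 and 0 to 19 genes. The count of members higher at an unadjusted p under 0.05 ranged from 4 to 8, 6 to 12 and 5 to 10 with each library left out, was 2 and 1 in all endothelial and general capillary cells without the Plvap-led cluster, and 8 in aerocytes without the filter. The interaction gave 11 genes with RLE size factors and 21 to 61 with each library left out, the 61 without Vegfr2Y949F B. Venous member calls, 11, were 7 to 10 with each library left out and 13 with stricter cells.

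The sets share letters, but the labels do not say what a letter marks. Across genes, the A minus B differences of WT and of Vegfr2Y949F correlated at 0.42 in all endothelial and general capillary cells and 0.34 in aerocytes. With only 2 pairs and no meaning given for the letter, the pairing is not established. With a replicate block, 5 genes were called in all endothelial cells, 3 in general capillary cells and 4 in aerocytes, 0 of them members. At an unadjusted p under 0.05, 16, 17 and 11 members were higher. Of all genes, 938, 1050 and 551 had such a p, in place of 155, 223 and 159 without the block. In other types the block gave 12 member calls. These were Gbp6, Rsad2, Ifit3 and Ifit1 in venous, Rsad2 and Ifit3b in arterial and Iigp1 in club cells. Lower in Vegfr2Y949F were Isg15, Irgm1, Irf1 and Iigp1 in alveolar macrophages and Ifit1 in dendritic cells. Of all genes, the block called 60 in venous, 67 in arterial, 36 in club, 101 in alveolar macrophages and 20 in dendritic cells. In the main test these counts were 1, 2, 2, 0 and 5, so the block raised calls over all genes too.

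The log2 ratio of the antiviral to the GTPase sum depends on the list. With all members outside the GTPases and factors as antiviral, it was -0.34 in general capillary, -0.10 in arterial and -0.40 in venous cells, 3.20 in AT1 cells, 2.83 in neutrophils and 3.37 in interstitial macrophages, and turned to 0.37 in aerocytes and 0.62 in lymphatic cells. With doublets kept it turned to -0.058 in AT1 cells and -0.26 in neutrophils and was 0.91 in interstitial macrophages. Stricter cells gave 0.54 in neutrophils and no lymphatic or dendritic value, and clustering with the members gave -3.45 in arterial cells and turned 0.94 to -0.23 in dendritic cells. The cause of these moves was not tested. Shares of general capillary cells rise with depth by construction: 20.7% with an antiviral UMI at 1000 UMIs became 31.9% at 2000 and 50.9% without thinning, and 76.4% with a GTPase UMI became 88.9% and 94.99%. Depth limits which members can be tested: 11 of 38 in myofibroblasts and 17 in lymphatic cells, against 37 in general capillary cells.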
